A study of Homo sapiens with 8 samples.

Results

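ESRP1, ESRP2, GRHL1, GRHL2, ELF3 and ZEB1 were examined as a small circuit of epithelial identity, chosen by symbol from a list of peaks of N6-methyladenosine (m6A), a methyl mark on adenosines of messenger RNA. Every listed peak carrying 1 of these 6 symbols was taken, which gave 12 of 22626 peaks, all on the genes named. The peaks came from HCT116, a human colorectal cancer line. One arm carried a control hairpin (shNC, with the genotype given as WT) and the other a stable hairpin knockdown of ALKBH5, a demethylase that removes m6A from RNA. Each arm had 2 libraries of RNA fragments pulled down with an anti-m6A antibody (the IP) and 2 of fragments kept as input, 8 libraries in 4 groups. The labels name 1 ALKBH5 hairpin (AL1), and nothing in them says that replicates were separate cultures.

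The measurements used are 1 table for the whole series, without values for single libraries. Replicate errors and depth are therefore unknown, and the amount of ALKBH5 RNA was not analysed here. The authors' deposited table gives each peak its own p, an enrichment read as IP over input, and a log2 fold between the arms with a false discovery rate (FDR). The sources used here do not give the numerator of that fold, so its sign is reported without reading it as more or less m6A after the knockdown. They also do not say whether the amount of transcript was corrected for. A change of m6A per transcript and a change in the amount of the transcript cannot be told apart. A peak at or under an FDR of 0.05 is called. Of 11 marker genes of colorectal epithelium 6 had a peak (EPCAM, CDH1, KRT8, KRT18, KRT19 and CDX2). So did 3 of 11 mesenchymal and fibroblast markers (FN1, COL1A1 and TAGLN) and 1 of 8 leukocyte and endothelial markers (CD68). KRT20, CDX1, VIL1, CDH17 and LGR5 of the epithelial markers had none, and neither did PTPRC, PECAM1 and VIM of the others. A gene without a listed peak may still be expressed.

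ESRP1 and ESRP2 are RNA-binding proteins that direct the epithelial choice of alternative exons in genes such as FGFR2, CD44, ENAH and CTNND1. The grainyhead-like factors GRHL1 and GRHL2 and the ETS factor ELF3 switch on junction and surface genes of epithelia. ZEB1 is a zinc finger repressor that silences E-cadherin and other epithelial genes and is itself held down by GRHL2 and by microRNAs of the miR-200 family. ZEB1 in turn represses ESRP1 and GRHL2, so these genes are known as opposing arms of the epithelial to mesenchymal transition.

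All 6 genes carried at least 1 m6A peak, and 3 of them carried a called one. GRHL2 had 4 peaks, ESRP1 had 3, ESRP2 had 2, and GRHL1, ELF3 and ZEB1 had 1 each. Among all 12009 genes with a peak, 51.6% had a single peak and 9.49% had 4 or more. Of the 12 peaks 3 were called, against 8.23% of all peaks. The called ones were 2 positive, on ESRP1 and ESRP2, and 1 negative, on GRHL2, against 5.74% of all peaks for positive and 2.49% for negative folds. The genes were chosen with these results known. With p doubled in case it was one-sided, 2 of the 12 were called against 6.36% of all peaks, and with the folds recentred on the median of all peaks 2 against 7.77%. At an FDR of 0.01 it was 1 against 4.99%, at an unadjusted p of 0.05 it was 3 against 19.9%, and with an absolute log2 fold of at least 1 it was 3 against 4.68%. A positive fold stood at 9 of the 12 peaks, against 55.3% of all peaks, and the median log2 fold was 0.91 against 0.14. The other 9 peaks had FDRs between 0.33 and 0.71, and none of them reached an unadjusted p of 0.05.

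**Figure D1:**
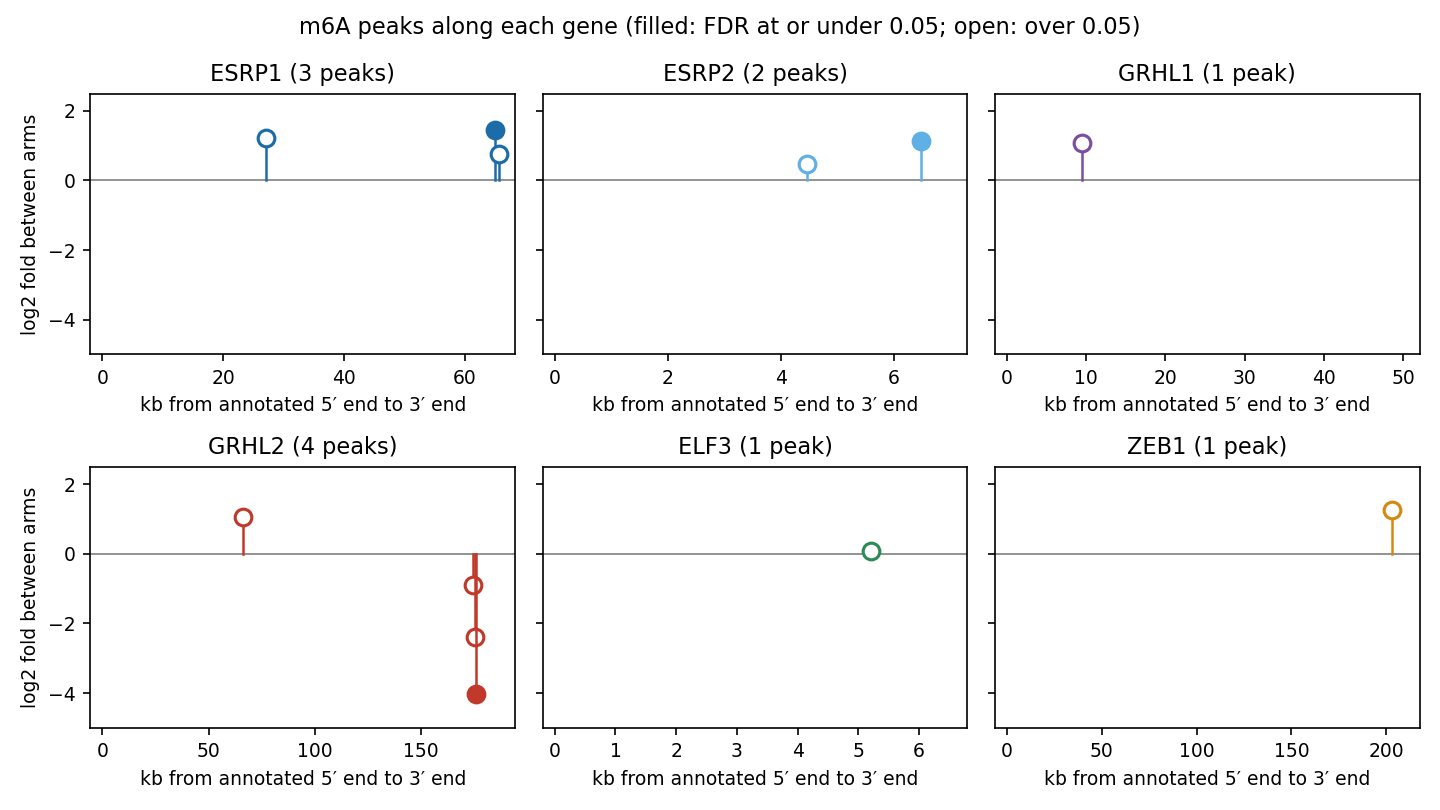
Log2 fold between the arms (vertical axis) of each m6A peak of the 6 genes against the position of its centre from the annotated 5′ end, in kilobases (horizontal axis, drawn to the full span of each gene). Filled points are at or under an FDR of 0.05 and open points are over it; the 3 downstream GRHL2 peaks are negative and close together, while the ESRP1 and ESRP2 peaks are all positive.

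ESRP1 carried positive folds at each of its 3 peaks, and the strongest of them was the called one. In the authors' deposited table the ESRP1 peak at 94705941 to 94706449 on chromosome 8 (GRCh38, plus strand) had a log2 fold of 1.45, a 2.73-fold ratio between the arms, with an FDR of 6.9e-05. It is a single exon block of 509 bases whose own log10 p was -58.4, more significant than 85.6% of all peaks, with a 9.0-fold enrichment. This ESRP1 peak was centred 1271 bases from the annotated 3′ end of the gene and so lies in the 3′ part of the transcript. A much weaker ESRP1 peak follows after 239 bases, at 94706689 to 94706808. The authors' deposited table gives that peak a log2 fold of 0.75 (FDR 0.61), a log10 p of -3.33 and a 2.57-fold enrichment. The upstream ESRP1 peak, at 94668096 to 94668275, lies 37665 bases before the called one. It stood at 1.22 (FDR 0.43) in the authors' deposited table, with a 3.94-fold enrichment and a log10 p of -3.4. All 3 ESRP1 folds were thus of 1 sign, but 2 of them belong to peaks in the least significant of 5 equal classes of peak p, where 0.994% of peaks were called.

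ESRP2, the paralog of ESRP1 with the same role in epithelial splicing, showed a similar arrangement of a strong peak at the 3′ end and a weak one upstream. In the authors' deposited table the ESRP2 peak at 68229183 to 68230083 on chromosome 16 (minus strand) had a log2 fold of 1.14, a 2.2-fold ratio, with an FDR of 0.03. This block of 901 bases was centred 600 bases from the annotated 3′ end. It had a log10 p of -61.5 and a 20.8-fold enrichment, above 83.7% of all peaks. The upstream ESRP2 peak, at 68231596 to 68231823, consists of blocks of 99 and 22 bases separated by 107 bases. It stood at 0.47 (FDR 0.71) in the authors' deposited table and was the weakest of the 12 peaks, with a log10 p of -2.49. The call of the strong ESRP2 peak was lost with p doubled, at an FDR of 0.061, and with the folds recentred, at an FDR of 0.068.

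The called peaks of both ESRP genes had folds of 1 sign and of near size. Their log2 folds differed by 0.31. The standard errors implied by the deposited fold and p, with p read as one-sided, were 0.31 for ESRP1 and 0.4 for ESRP2, which gives the difference a standard error of 0.51. The paralogs are therefore not separated on that reading of p, which is not settled. The deposited p was 0.54 for ZEB1 and 0.65 for the upstream ESRP2 peak, higher than a p one-sided towards its fold would go. The sources used here also do not say whether those errors hold any spread between replicates.

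GRHL2, a grainyhead-like factor that maintains E-cadherin and claudin expression, carried both a positive fold and the most negative folds of the 6 genes. Its first peak spans 101558488 to 101570374 on chromosome 8 (plus strand) and consists of exon blocks of 325 and 36 bases across a gap of 11526 bases. The authors' deposited table gives this first GRHL2 peak a log2 fold of 1.07 (FDR 0.33), a log10 p of -13.2 and a 6.25-fold enrichment. The other 3 GRHL2 peaks lie 96325 bases downstream, within 2218 bases of each other, and all had negative folds. The peak at 101666700 to 101667030 stood at -0.9 (FDR 0.55) in the authors' deposited table. In the authors' deposited table the next peak, at 101667749 to 101667988, stood at -2.39 (FDR 0.6). The last GRHL2 peak, at 101668288 to 101668917, was the called one, and the authors' deposited table gives it a log2 fold of -4.02 with an FDR of 0.022. That is a 16.2-fold ratio between the arms, and 20 of the 22626 peaks, this one included, had a fold as negative or more so. In these 3 peaks the fold was more negative at each step towards the 3′ end. The deposited p of the folds at -0.9 and -2.39 were 0.25 and 0.32, so neither is distinguished from 0. Their order was not tested.

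The GRHL2 call rests on a weaker peak than those of ESRP1 and ESRP2. Its log10 p of -6.12 was more significant than 39.9% of all peaks, in the next class of peak p, where 2.28% of peaks were called, and its enrichment was 12.1-fold. It was called with p doubled (FDR 0.044) and with the folds recentred (FDR 0.018), but not at an FDR of 0.01. The called and the first GRHL2 peak differed by -5.09 on the log2 scale, with a standard error of 1.55 when p is read as one-sided. Both peaks were picked out after their values were seen, as the lowest and highest folds of GRHL2, so that error gives no test of the difference. The 3 downstream peaks ended 12283 to 14170 bases before the annotated 3′ end of GRHL2, which belongs to the longest annotated model and may not be the end used in these cells.

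GRHL1, a close relative of GRHL2, had a single short peak of 120 bases at 9961124 to 9961243 on chromosome 2 (plus strand). The authors' deposited table gives GRHL1 a log2 fold of 1.09 (FDR 0.62), a log10 p of -3.89 and a 3.62-fold enrichment. The GRHL1 peak lay in the 5′ part of the gene, centred 9491 bases from the annotated 5′ end and 41093 from the 3′ end. GRHL1 and the first GRHL2 peak had nearly the same positive fold, and neither was called.

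ELF3, an ETS factor of simple epithelia including the gut, carried by far the most significant peak of the 6 genes and the fold nearest to 0. Its peak at 202013903 to 202016494 on chromosome 1 (plus strand) joins blocks of 122 and 1286 bases across a gap of 1184 bases. The ELF3 peak had a log10 p of -339.0, more significant than 98.3% of all peaks, and a 20.8-fold enrichment. The authors' deposited table gives it a log2 fold of 0.1 (FDR 0.56), which turns to -0.04 once the folds are recentred. An unnamed gene model on the same strand has its own peak inside the ELF3 peak, at 202015149 to 202015657, for which the authors' deposited table gives a log2 fold of 0.04 (FDR 0.66). Reads of the ELF3 transcript and of that model cannot be told apart there. ELF3 and the strong ESRP2 peak had the same enrichment of 20.8-fold, one with a fold near 0 and the other at 1.14.

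**Figure D2:**
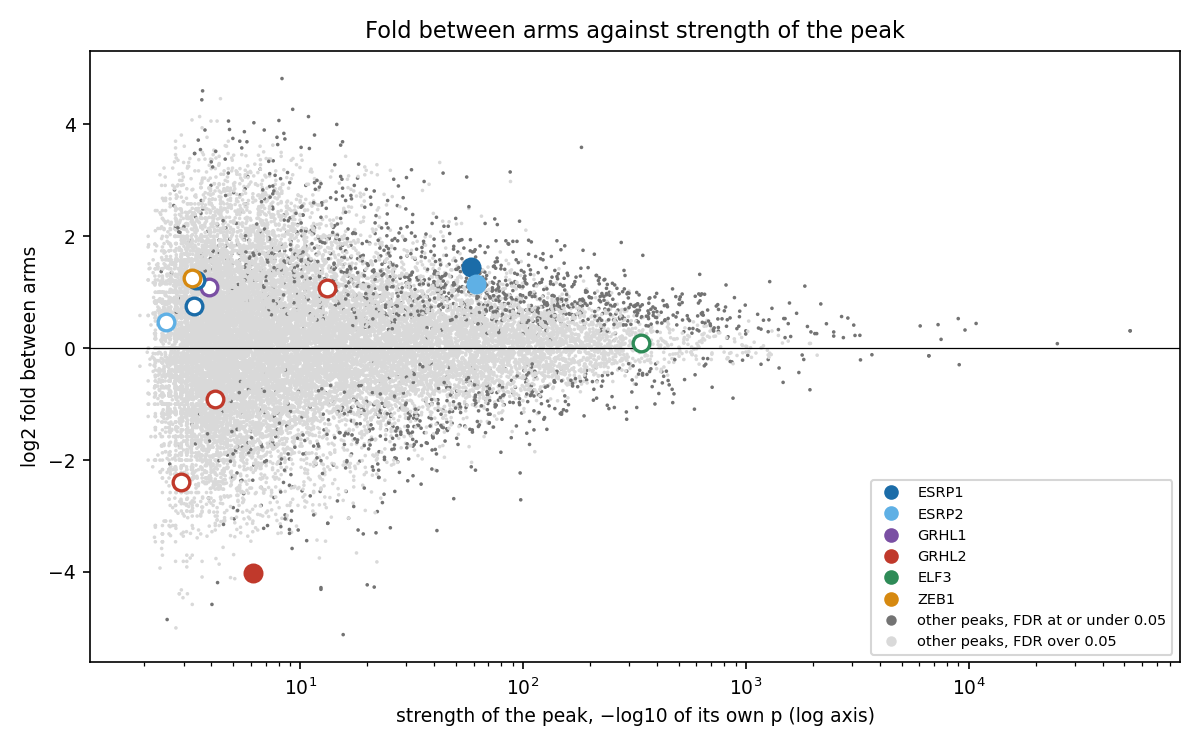
Log2 fold between the arms (vertical axis) against the strength of each peak, as −log10 of its own p on a log axis (horizontal), for all peaks with a finite p; large points are the peaks of the 6 genes, filled at or under an FDR of 0.05. The spread of folds is wider at the weak end, where 8 of the 12 peaks lie, while the called ESRP1 and ESRP2 peaks and the ELF3 peak stand at the strong end.

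ZEB1, the mesenchymal repressor, had 1 weak peak of 180 bases at 31521639 to 31521818 on chromosome 10 (plus strand), 8075 bases from the annotated 3′ end. The authors' deposited table gives ZEB1 a log2 fold of 1.26 (FDR 0.67), a log10 p of -3.28 and a 12.4-fold enrichment. The fold is larger than that of ESRP2, yet its deposited p was 0.54, so the data do not distinguish it from 0. The ZEB1 fold was positive, as were the ESRP1 and ESRP2 folds and 55.3% of all peaks, and at that p its sign is not established.

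The start of ZEB1 is shared with the antisense gene ZEB1-AS1, and a listed peak of that gene, looked up after the ZEB1 values were seen, falls there. The sequence shown is the ZEB1 start window, 250 bases before to 50 after the annotated start, from RefSeq (GRCh38.p14, plus strand, chr10:31318167-31318466), shown because that peak overlaps it. It is 1 of 7 start windows listed for ZEB1. Capitals mark the 70 bases inside the ZEB1-AS1 peak, which covers 151 bases from 31318397 to 31318547.
ZEB1 start window: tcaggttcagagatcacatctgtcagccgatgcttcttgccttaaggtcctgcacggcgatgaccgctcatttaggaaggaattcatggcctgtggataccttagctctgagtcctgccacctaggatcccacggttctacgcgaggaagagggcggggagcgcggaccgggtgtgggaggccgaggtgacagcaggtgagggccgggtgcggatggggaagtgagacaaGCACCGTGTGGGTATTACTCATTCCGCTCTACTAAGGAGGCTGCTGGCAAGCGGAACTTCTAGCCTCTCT
The window was searched on both strands for GGACT, a common form of the m6A consensus, and for CAGGTG, the E-box bound by ZEB1. GGACT occurred once on the minus strand and CAGGTG once on the plus strand, without overlap, and neither match lay in the capitals. Of 35116 start windows of all genes, 44.2% held GGACT and 20.6% held CAGGTG. The authors' deposited table gives the ZEB1-AS1 peak a log2 fold of -1.51 (FDR 0.65), opposite in sign to ZEB1, and neither was called.

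ZEB1 and ZEB1-AS1 had identical log10 p and identical enrichment, as did 236 peaks in all besides ZEB1. Exact ties of this kind were common: 8919 peaks (39.4%) shared both values with at least 1 other peak. Of the 12 peaks 7 did so. The 3 downstream GRHL2 peaks shared them with 155, 227 and 10 others, in order along the gene. GRHL1 shared them with 1 other peak, and the first and last ESRP1 peaks with 2 each. The called peaks of ESRP1 and ESRP2, the ELF3 peak, the first GRHL2 peak and the upstream ESRP2 peak were not tied. Of the tied peaks 1.12% were called, against 12.9% of the others, so the called GRHL2 peak is 1 of 100 tied peaks that passed. Read counts behind the ties were not analysed here, and their part in the GRHL2 and ZEB1 folds was not tested.

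The 12 peaks as a set were not more enriched than the table. Their median enrichment was 10.2-fold against 10.1-fold for all peaks, whose quartiles were 4.96 and 16.3. Enrichment ran from 2.57-fold for the last ESRP1 peak to 20.8-fold for ELF3 and ESRP2. Their own p was less significant, with a median log10 p of -4.03 against -8.2. Of the 8 peaks with an absolute log2 fold of at least 1, 5 were not called, and among all peaks with such a fold, 14.0% were called. Blocks on more than 1 exon made up 3 of the 12 peaks, against 30.4% of all peaks, and the median exonic length was 286 bases against 300.

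**Figure D3:**
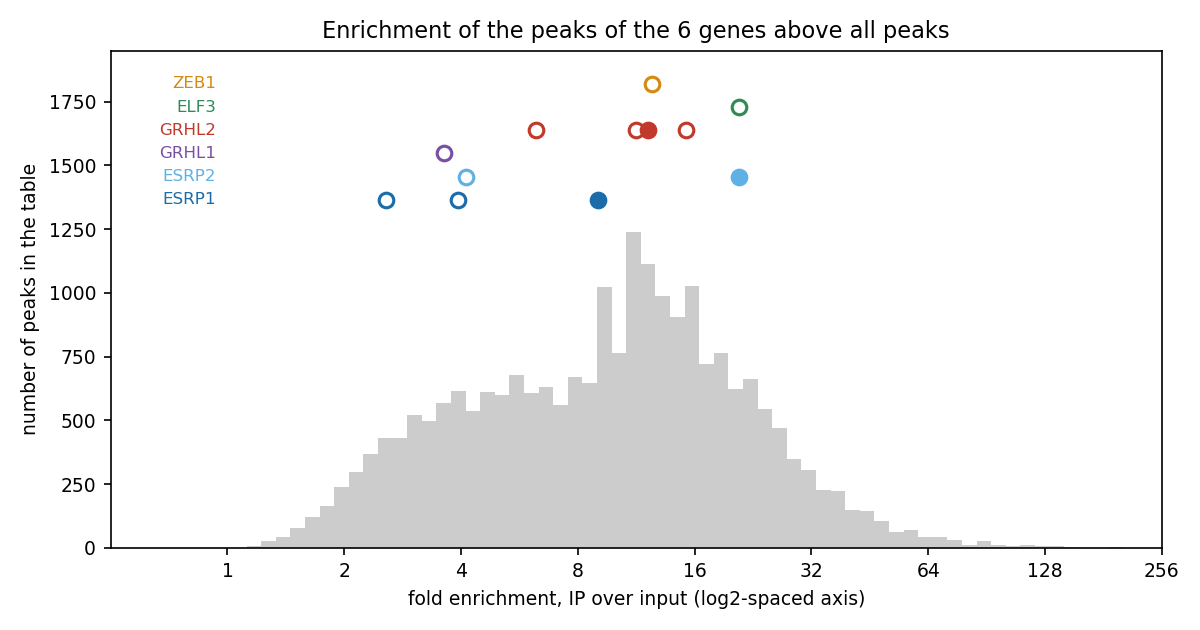
Histogram of the fold enrichment of IP over input of all 22626 peaks (horizontal axis spaced by log2, vertical axis the number of peaks), with the 12 peaks of the 6 genes as points above it, 1 line per gene, filled at or under an FDR of 0.05. The points reach from 2.57 to 20.8 and lie over the bulk of the histogram; the height of a point separates the genes and carries no value.

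m6A is known to gather near stop codons and in the 3′ parts of messages. Of the 12 peaks 2 were centred within 1000 bases of the annotated 3′ end, the strong ESRP2 peak and the last ESRP1 peak, against 22.2% of 20490 peaks matched to an annotated gene. Within 2000 bases there were 4, with the called ESRP1 peak and ELF3 added, against 35.8% of matched peaks. Neither share of the 12 peaks was above that of all matched peaks. The 2 called positive peaks were centred 600 bases (ESRP2) and 1271 bases (ESRP1) from an annotated 3′ end. The GRHL2, GRHL1 and ZEB1 peaks were farther off by this annotation, which for GRHL2 may not be the end used in these cells.

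Among 18 genes whose exons the ESRP proteins regulate, 17 had a peak. Of their 54 peaks 7 were called positive and 0 negative, against 5.74% positive and 2.49% negative among all peaks, and the median log2 fold was 0.28 against 0.14. At the negative share of all peaks, a count of 0 among 54 is near the background. The authors' deposited table gives the catenin gene CTNND1 called peaks at 0.88 (FDR 3.6e-05) and 1.11 (FDR 0.00089). CD44, an adhesion receptor with a block of variable exons, had 3 called peaks, at 0.58, 0.98 and 1.6 in the authors' deposited table. TCF7L2, a Wnt pathway transcription factor, stood at 1.14 (FDR 0.0051) in the authors' deposited table. That TCF7L2 peak was weakly enriched, at 1.87-fold against a median of 10.1-fold for all peaks. Of all called peaks in the series 69.7% had a positive fold, so a shared positive sign does not set these genes or the ESRP genes apart. Among 14 other splicing regulators of such exons, 12 had a peak. Of their 26 peaks 2 were called positive and 1 negative (11.5% in all, against 8.23% of all peaks), with a median of 0.37. PTBP1, a repressor of many alternative exons, stood at 1.68 (FDR 0.00019) in the authors' deposited table. That PTBP1 peak was also weakly enriched, at 1.69-fold, with a log10 p of -6.56. HNRNPF stood at 0.33 and PCBP1 at -0.41 in the authors' deposited table; the first call was lost with the folds recentred and the second with p doubled.

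Epithelial genes bound by GRHL factors carried called peaks of both signs. Of 18 genes 17 had a peak, and of 26 peaks 4 were called positive and 5 negative (34.6% in all, against 8.23% of all peaks), with a median log2 fold of 0.07. With the folds recentred the split was 2 positive and 7 negative, and at an FDR of 0.01 it was 2 and 3. No list here was matched to all peaks for the strength of its peaks. Over all peaks the share called ran from 0.994% in the least significant of 5 equal classes of peak p to 21.8% in the most significant. The membrane protease gene PRSS8 stood at -0.74 (FDR 1e-11) in the authors' deposited table, and LSR, a protein of tricellular junctions, at -0.52 (FDR 2.2e-07). Positive calls of this list, named after their values were seen, fell on CDH1 at 1.15 and 0.88, MARVELD2 at 1.02 and EPCAM at 0.66 in the authors' deposited table. With p doubled the EPCAM call was lost. Other epithelial transcription factors had 3 positive and 0 negative calls among 25 peaks on 14 of 19 genes, with a median of -0.28. Of all peaks 5.74% were called positive and 2.49% negative, so the 0 is near the background. With p doubled or the folds recentred this list had 1 positive call. KLF5 stood at 0.5 (FDR 5.2e-06) and KLF4 at 1.63 (FDR 0.029) in the authors' deposited table. With p doubled the KLF4 call was lost.

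A list of 13 junction, polarity and surface genes that ZEB1 is known to repress, which leaves out ESRP1 and GRHL2, had 11 genes with a peak. Of 27 peaks 7 were called positive and 0 negative, against 5.74% and 2.49% of all peaks, with a median log2 fold of 0.55. At the negative share of all peaks, a count of 0 among 27 is near the background. With the folds recentred, and also at an FDR of 0.01, 4 were called positive and 0 negative. TJP1, the tight junction scaffold ZO-1, had called peaks at 1.0 (FDR 6.2e-06) and 0.78 (FDR 0.0074) in the authors' deposited table. CDH1, which encodes E-cadherin, had called peaks at 1.15 (FDR 0.00026) and 0.88 (FDR 0.019), and the claudin gene CLDN7 stood at 0.79 (FDR 0.0017), in the authors' deposited table. With the folds recentred the CDH1 call at 0.88 was lost. CDH1, EPCAM and ST14 are in both the GRHL and the ZEB1 lists, and CDH1 and EPCAM are also among the colorectal epithelium markers, so these lists are not separate evidence. Of 24 peaks on 11 of 13 ZEB1 corepressors and partners 1 was called (4.17%, against 8.23% of all peaks). It was positive, on the deacetylase gene HDAC2 at 2.18 (FDR 0.016) in the authors' deposited table. That HDAC2 peak was weak, with a log10 p of -2.76, and the median of the list was 0.07. Of 14 mesenchymal transcription factors 8 had a peak. Of their 14 peaks 1 was called (7.14%, against 8.23% of all peaks), on SOX9 at -1.13 (FDR 0.00095) in the authors' deposited table. SOX9 is also a factor of intestinal crypts, and ZEB2, TWIST2 and PRRX1 had no listed peak.

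**Figure D4:**
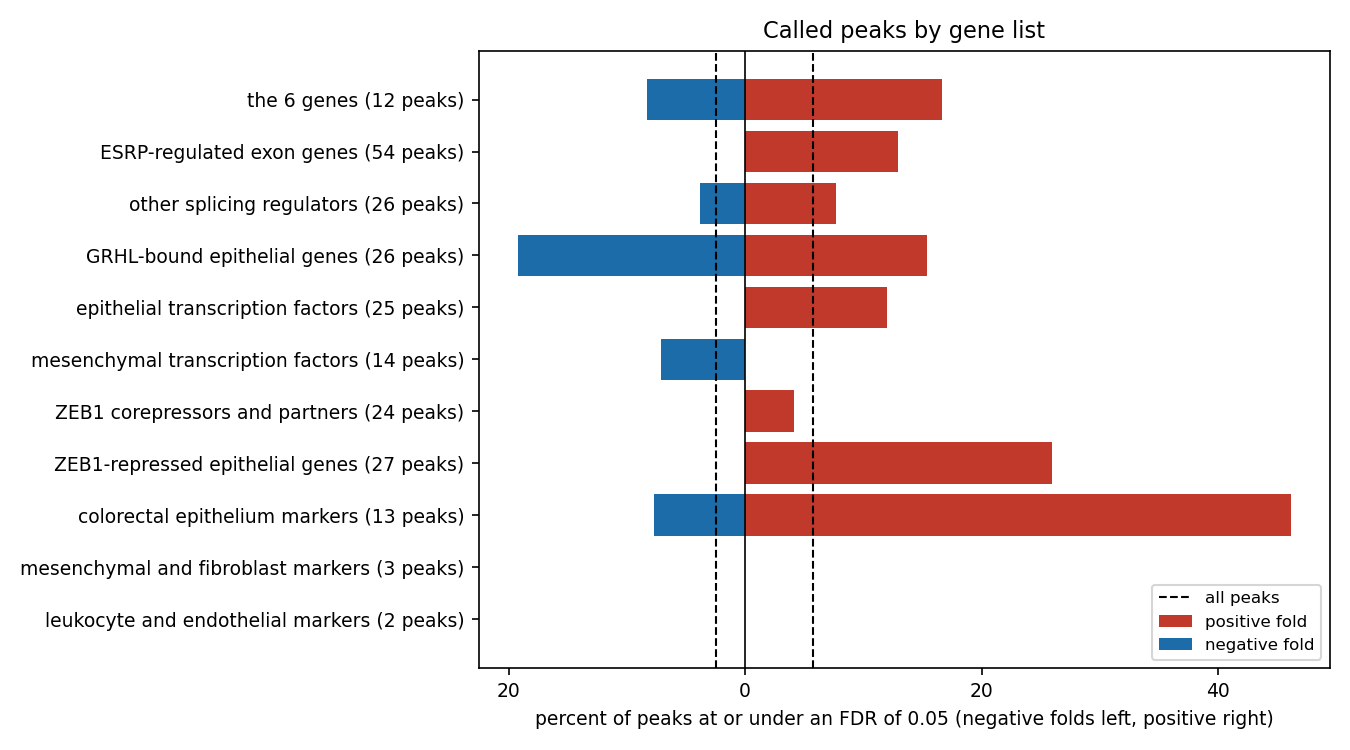
Percent of the peaks of each gene list at or under an FDR of 0.05 (horizontal axis, positive folds to the right and negative to the left), with the number of peaks of each list in brackets. Dashed lines mark all peaks, at 5.74% positive and 2.49% negative. The ESRP-regulated and ZEB1-repressed lists have 7 positive and 0 negative calls each, and the GRHL-bound list has 4 and 5. At 2.49%, a count of 0 is near the background in lists of these sizes.

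The colorectal epithelium markers had 6 positive and 1 negative call among 13 peaks (53.8% in all, against 8.23% of all peaks), with a median log2 fold of 0.19 and a median enrichment of 2.46-fold. With the folds recentred the split was 3 positive and 2 negative. The 8.23% is not matched for the strength of the peaks. In the most significant of 5 equal classes of peak p, 21.8% of peaks were called. KRT19 stood at 0.4 and KRT18 at 0.68 in the authors' deposited table. KRT8, named after its values were seen, had called peaks at -0.26 and 0.19 in the authors' deposited table, both lost with p doubled. The KRT19 and KRT18 peaks were weakly enriched, at 1.25-fold and 1.69-fold, unlike the called ESRP1 and ESRP2 peaks. None of the 3 peaks on mesenchymal and fibroblast markers or the 2 on leukocyte and endothelial markers was called. At the 8.23% of all peaks, no call among so few peaks is near the background and sets up no contrast with the epithelial markers.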

How the data were processed

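The authors processed the HCT116 libraries of m6A IP and input. Per the submitters' processing notes, GRCh38 was the build and BWA 0.7.12 and HOMER 4.9.1 were among the tools, without their roles, and no source used here names the peak caller. The file is 1 peak list of the whole series, with exon blocks, and every value in it is the authors'. Per the file headers, a peak has a p-value and the logarithm of that p, held here as a score. The deposited enrichment is a linear ratio. The deposited log2 fold between the arms has its p and FDR as log10 scores, per the file headers. The labels' protocols name more than 1 antibody and platform.

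The members and gene lists were chosen with earlier results of these data known. Member peaks were taken by symbol, and 1-based coordinates were set against the gene table of RefSeq GRCh38.p14 by symbol and chromosome. Adjusting the deposited p by the Benjamini-Hochberg method over all peaks gave the deposited FDR within 0.02 (log10) for 22469 of 22620 peaks. The deposited p never exceeded 0.773. A p one-sided towards its fold would stop short of that value, so it is not settled how p is to be read. Doubling it was an alternative only. Recentring subtracted the median fold and took a standard error from fold and p, read as one-sided, where p was under 0.3. From each list, at most 3 genes with the smallest FDRs of a called peak are named. A few that this rule selects are not reported here. The planned fits per library were not run, since they need values per library. Percentiles give the share of all peaks below a value. Python 3.11.15, pandas 2.3.3 and scipy 1.17.1 were used.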

Additional observations from a re-analysis of the deposited data

How the results depend on the processing

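The called ESRP1 peak passed at each setting tried. The 2 positive calls of the 6 genes became 1 at an FDR of 0.01, with p doubled and with the folds recentred, where the ESRP2 peak no longer passed. The 1 negative call, on GRHL2, became 0 at an FDR of 0.01 and 0 when peaks had to have a p of their own under 1e-10. Both counts stayed with an unadjusted p of 0.05, a log2 fold of at least 1, 2-fold enrichment or overlapping peaks counted once. The settings on fold, enrichment and overlap could not have changed them. The called peaks have log2 folds of 1.45, 1.14 and -4.02 and enrichments of 9.0, 20.8 and 12.1, and none overlaps a peak of another gene. The unadjusted p of 0.05 is looser than the FDR and could only have added calls. The ELF3 fold turned from 0.1 to -0.04 with the folds recentred, and 8 in place of 9 of the 12 folds were then positive. Recentring moved the split of all calls from 69.7% to 53.1% positive. Peaks near a 3′ end numbered 0 within 500 bases and 4 within 2000, against 2 within 1000. The shares of all matched peaks were 12.6%, 35.8% and 22.2% in that order, so a count of 0 among 12 is not far from the background. Of the counts of the pathway lists by sign, 8 fell by more than 1.5 times at an FDR of 0.01, 3 with p doubled and 5 with the folds recentred, and 2 rose with the folds recentred. No paired analysis was possible because the table holds no values per library, and no replicate could be left out for the same reason. Fits per library with other normalizations and filters were not run. Depth is unknown.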

Other observations

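Relatives of the 6 genes, looked up after the values above were seen, carried peaks as well. GRHL3, the other member of the grainyhead-like family with a peak, had 1 peak at 24354573 to 24355109 on chromosome 1 with a 24.8-fold enrichment. Its log2 fold was -0.66 (FDR 0.58) in the authors' deposited table, so of the GRHL family the called peak of GRHL2 was the one that passed. Of the ETS factors related to ELF3, ELF2 had 6 peaks, and ELF1 and ELF4 had 2 each. ELF2 had 1 called peak, spanning 3 exon blocks at 139137605 to 139176979 on chromosome 4, given as 1.48 (FDR 0.032, log2 fold) by the authors' deposited table. Another ELF2 peak, at 139058658 to 139059586, had a 102-fold enrichment, above 99.8% of all peaks, and stood at 0.74 (FDR 0.52) on the log2 scale in the authors' deposited table. The ELF1 and ELF4 folds ran from -0.58 to 0.96 in the authors' deposited table, and none was called. ELF3-AS1, the antisense neighbour of ELF3, had 2 uncalled peaks, at 1.42 (FDR 0.67) and 1.13 (FDR 0.65) in the authors' deposited table. Their log10 p were -2.41 and -14.1, and they shared p and enrichment with 108 and 6 other peaks. ELF3 itself stood at 0.1, and a difference between ELF3 and ELF3-AS1 was not tested.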
